A study of Drosophila melanogaster with 18 samples.

Results

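Aminoacyl-tRNA synthetases are the enzymes that attach each amino acid to its own tRNA, and their genes were followed here in *Drosophila melanogaster* S2 cells, a cultured line derived from embryos, through a 30 min heat shock (HS). The genes were chosen by their FlyBase symbols, which consist of the abbreviation of 1 or 2 amino acids followed by RS, with the ending -m for the form that works in mitochondria. Of the 15602 genes in the mRNA table, 31 carried such a symbol, namely 17 cytosolic forms (without -m) and 14 mitochondrial forms. The annotation holds 33 such symbols, and the other 2 (LeuRS and PheRS-m) were not analysed here. The rule reads symbols and no measured value, but it was chosen with earlier results of these data known.

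The study followed transcription and mRNA levels during HS in these cells, and the part used here is RNA-seq of poly(A)+ RNA. The HS cells received an equal volume of serum-free medium heated to 48°C and were then held at 37°C for 30 min. The non-heat shock (NHS) cells were taken before HS, and no such addition of medium was described for them. Each condition had 2 biological replicates, 4 libraries in all. Neither condition carried an RNAi treatment in the labels, and both used the same line, so the comparison is about 1 cell line grown in culture.

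Cytosolic synthetases charge the tRNAs used by the ribosomes that translate nuclear mRNAs, and mitochondrial synthetases, also encoded in the nucleus and imported as proteins, charge the tRNAs that the mitochondrial genome encodes. The enzymes fall into class I and class II, which have unrelated catalytic folds. In animals several cytosolic synthetases are held together in a multi-synthetase complex by the scaffold proteins AIMP1, AIMP2 and AIMP3. In humans the same gene supplies both compartments with GlyRS, and likewise with LysRS, so the absence of an -m symbol does not place an enzyme in the cytosol alone.

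Levels are given as FPKM, fragments scaled for transcript length and library size, a unit that allows comparison between genes of different length. FPKM are relative to the other mRNAs of the library, so a loss shared by all mRNAs is not visible in them, and in bulk RNA fewer cells and less RNA per cell cannot be told apart. Values are given for replicate 1 and then replicate 2 of each condition. Log2 fold changes are HS over NHS on the log2(FPKM + 1) scale, and come with the standard error (SE) of the limma fit over the 7815 genes that averaged 1 FPKM or more. The threshold for a call was an adjusted p under 0.05 (Benjamini-Hochberg over all of these genes). All 31 synthetase genes passed the minimum.

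The libraries as a whole were checked first. The summed FPKM of all genes was 923996 and 926922 in the HS libraries, against 831628 and 837852 in the NHS libraries. Read counts were not used here, but from the most frequent ratio among genes under 0.15 FPKM the HS libraries had about 60.1% and 69.3%, and NHS replicate 2 about 77.0%, of the depth of NHS replicate 1. *Hsp68*, a heat-inducible chaperone gene, averaged 9969 ± 427 FPKM in HS cells and 21.2 ± 1.24 FPKM in NHS cells (SD, n = 2 each). Of 8 haemocyte genes, the lineage from which S2 cells are thought to derive, 7 were above the minimum in these libraries, with summed levels of 225 and 262 FPKM in HS cells, against 205 and 255 FPKM in NHS cells. Of 5 markers of neurons, muscle and fat body, *elav* alone was above the minimum.

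The 17 cytosolic mRNAs were more abundant than the 14 mitochondrial ones in both conditions, with almost no overlap between the ranges. The lowest cytosolic value in any library was 33.5 FPKM (CysRS, HS replicate 2), and the highest mitochondrial value was 35.0 FPKM (AspRS-m, NHS replicate 2). Summed over all 31 genes, the synthetases took 1768 and 1599 FPKM in HS cells, against 1876 and 1815 FPKM in NHS cells. These sums are 0.191% and 0.173% of all FPKM in HS cells, against 0.226% and 0.217% in NHS cells. The total of all FPKM was higher in the HS libraries, so the shares differ by more than the sums do. The sum over the cytosolic forms was 8.38 and 7.05 times that over the mitochondrial forms in HS cells, against 7.78 and 7.17 times in NHS cells, so the ranges of this ratio overlapped. The order of the 31 levels was nearly the same in both conditions (Spearman's rho of 0.990 between the HS and NHS means, as a description over 31 genes measured in the same libraries). Between the replicates the rho was 0.990 in HS cells and 0.988 in NHS cells. These values compare single libraries and the first compares means of 2, so they do not rank the conditions against the replicates.

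ThrRS, which charges threonine and removes wrongly attached serine, was the most abundant synthetase mRNA at 195 ± 23.0 FPKM in HS cells and 231 ± 4.30 FPKM in NHS cells (SD, n = 2 each). LysRS, for lysine, came second in both conditions with 189 and 172 FPKM in HS cells, against 186 and 162 FPKM in NHS cells. AsnRS, AlaRS, AspRS and SerRS, all class II enzymes, followed in that order in both conditions, with HS means of 144, 141, 125 and 116 FPKM and NHS means of 149, 146, 133 and 117 FPKM. The replicates of AsnRS alone spanned 123 to 165 FPKM in HS cells and 136 to 162 FPKM in NHS cells, so these 4 neighbours were not separated beyond their spread in every case. The other 11 cytosolic forms had NHS means between 45.4 FPKM (CysRS) and 79.1 FPKM (HisRS). ArgRS and CysRS held the bottom places, ArgRS with 34.5 ± 0.550 FPKM in HS cells and 45.8 ± 2.91 FPKM in NHS cells and CysRS with 37.8 ± 6.01 FPKM in HS cells and 45.4 ± 5.13 FPKM in NHS cells (SD, n = 2 each).

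Among the mitochondrial forms AspRS-m, for aspartate, was the most abundant with 31.8 ± 3.25 FPKM in HS cells and 34.9 ± 0.251 FPKM in NHS cells (SD, n = 2 each). LeuRS-m, for leucine, came next at 20.2 ± 0.726 FPKM in HS cells and 24.7 ± 0.722 FPKM in NHS cells (SD, n = 2 each), close to ProRS-m. ValRS-m and GluRS-m were the least abundant of all 31 genes. ValRS-m, for valine, had 4.04 and 4.45 FPKM in HS cells, against 4.97 and 4.55 FPKM in NHS cells. GluRS-m, which glutamylates mitochondrial tRNAs, had 3.63 and 4.67 FPKM in HS cells, against 4.48 and 5.81 FPKM in NHS cells. The replicates of GluRS-m overlapped those of ValRS-m in both conditions, so their order is not fixed by these libraries. In NHS cells 5 mitochondrial forms averaged under 10 FPKM, and AsnRS-m, with the widest 95% interval of the 31 genes, is among them.

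**Figure D1:**
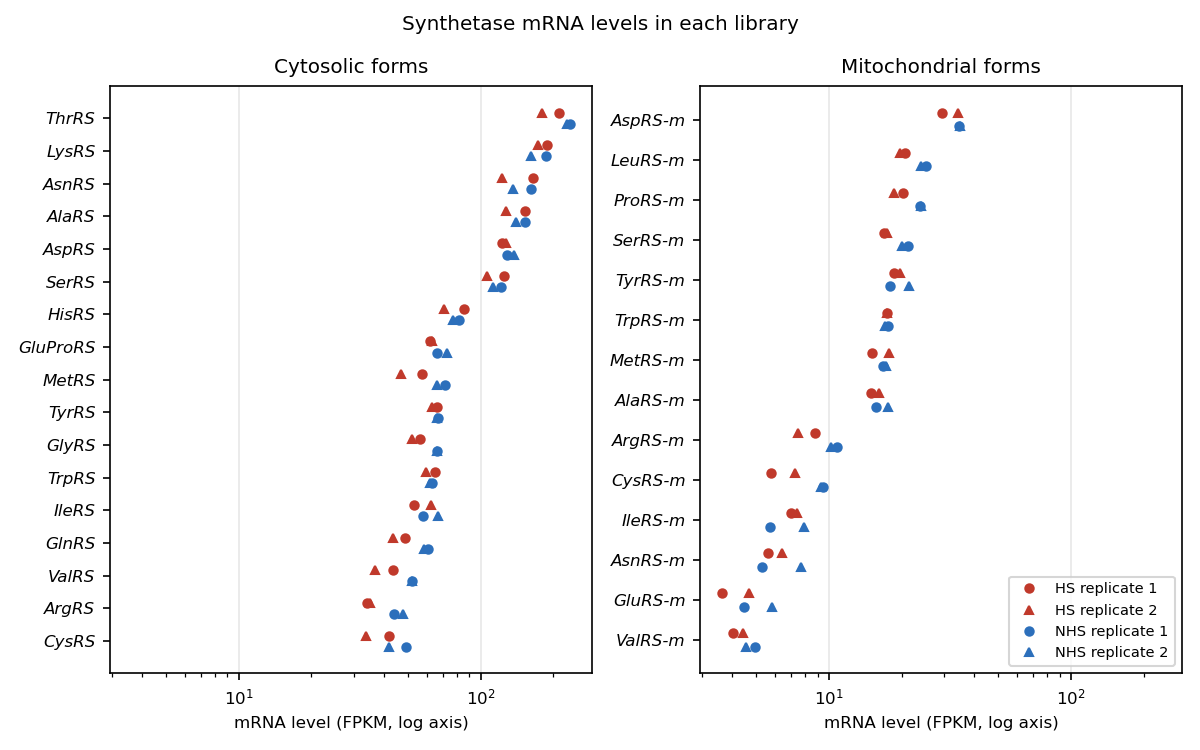
The level of each synthetase mRNA in FPKM on a log axis, with HS libraries in red above NHS libraries in blue, replicate 1 as circles and replicate 2 as triangles, for 17 cytosolic forms on the left and 14 mitochondrial forms on the right. Cytosolic values lie between 33.5 and 234 FPKM and mitochondrial values between 3.63 and 35.0 FPKM.

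The question put to these libraries was whether 30 min of HS altered the synthetase mRNAs. The differences were small and mostly in 1 direction. The median log2 fold change was −0.13 over the 31 genes, beside −0.02 over all tested genes, and the HS mean was between 69.5% and 105.7% of the NHS mean, with a median of 91.2%. A log2 fold change under 0 was found for 28 of 31 genes (90.3%), beside 53.4% of all tested genes. Both HS libraries lay below both NHS libraries for 16 of 31 genes (51.6%), beside 25.6% of all tested genes. Both HS libraries lay above for 0 of 31, beside 20.5% of all tested genes, and the conditions overlapped for the other 15.

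None of the 31 genes passed the test, whose fit held condition and no term for replicate number. Of all tested genes 3.31% (259) were called by limma in either direction. The smallest adjusted p of the 31 was 0.142, for ArgRS, which was called only with ribosomal protein scaling among the scalings tried (adjusted p 0.040). At an unadjusted p under 0.05, 8 of 31 (25.8%) were lower in HS cells, beside 10.5% of all tested genes, and 0 of 31 were higher, beside 7.42% of all tested genes. The 8 were MetRS, ArgRS, ValRS, GlnRS and GlyRS among the cytosolic forms and CysRS-m, ProRS-m and LeuRS-m among the mitochondrial ones. With 3 libraries in place of 4 this count was 4 when HS replicate 1 was left out, 1 for HS replicate 2, 1 for NHS replicate 1 and 0 for NHS replicate 2. No synthetase was called in any of these fits, and the calls over all genes numbered 39, 42, 26 and 64 in the same order. The count of synthetases under 0 also moved with the scaling, to 31 of 31 with libraries set to the same total FPKM or to the ribosomal protein mRNAs and to 20 of 31 with quantile normalization. Those scalings moved the median of all tested genes to −0.16, −0.25 and 0.01, and the median of the synthetases lay below it by 0.115 as deposited, 0.100 with equal totals, 0.104 with ribosomal protein scaling and 0.072 with quantile normalization.

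**Figure D2:**
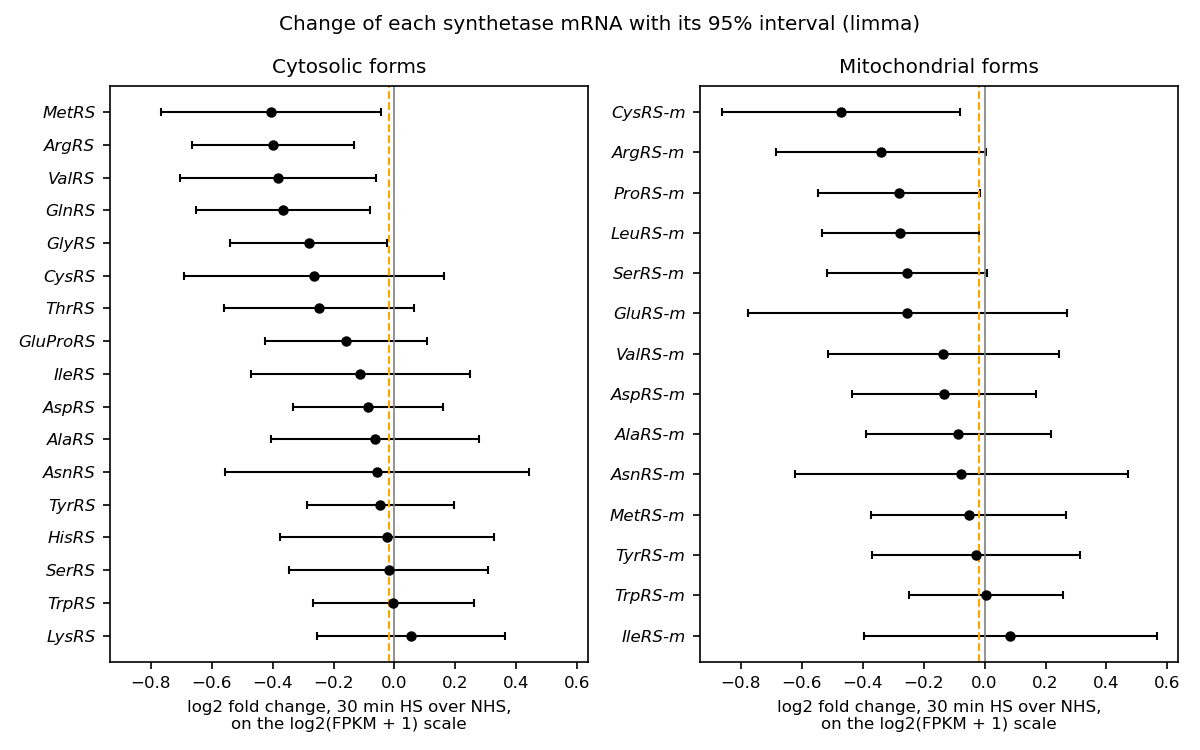
The log2 fold change of each synthetase mRNA, HS over NHS on the log2(FPKM + 1) scale, with its 95% interval from limma, for the cytosolic forms on the left and the mitochondrial forms on the right, and the median of all tested genes as a dashed line. The intervals of 8 genes lie below 0, and no gene was called after adjustment.

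MetRS, which charges methionine for initiator and elongator tRNAs alike, was with ArgRS at the bottom of the cytosolic forms by log2 fold change. It had 57.1 and 46.8 FPKM in HS cells, against 71.4 and 66.3 FPKM in NHS cells. Both HS libraries were lower, and the log2 fold change was −0.41 (SE 0.134, adjusted p 0.231). It was −0.26 without HS replicate 2, where that of ArgRS was −0.42. ArgRS, for arginine, had 34.1 and 34.9 FPKM in HS cells, against 43.8 and 47.9 FPKM in NHS cells. Its HS values lay close together and well under both NHS values, with a log2 fold change of −0.40 (SE 0.099, adjusted p 0.142). GlnRS, for glutamine, had 48.8 and 43.3 FPKM in HS cells, against 60.7 and 58.4 FPKM in NHS cells, again without overlap (log2 fold change −0.37, SE 0.107, adjusted p 0.190). These 3 enzymes belong to the multi-synthetase complex in animals. So do GluProRS, IleRS, AspRS and LysRS, whose log2 fold changes were nearer 0 or above it (−0.16, −0.11, −0.09 and 0.05).

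ValRS, which charges valine and in mammals binds elongation factor eEF1, had 43.3 and 36.5 FPKM in HS cells, against 52.0 and 52.2 FPKM in NHS cells. The NHS replicates were almost equal and both HS libraries were lower, with a log2 fold change of −0.38 (SE 0.120, adjusted p 0.215). GlyRS, for glycine, showed the same order with 56.5 and 52.0 FPKM in HS cells, against 66.0 and 66.2 FPKM in NHS cells (log2 fold change −0.28, SE 0.096, adjusted p 0.241). CysRS, for cysteine, had a similar log2 fold change of −0.26 but a wider error (SE 0.159), with 42.0 and 33.5 FPKM in HS cells, against 49.0 and 41.8 FPKM in NHS cells. Its conditions overlapped, since HS replicate 1 was above NHS replicate 2, and its log2 fold change lay between −0.42 and −0.11 with 1 library left out. ThrRS had 211 and 179 FPKM in HS cells, against 234 and 228 FPKM in NHS cells, without overlap, and a log2 fold change of −0.25 (SE 0.116, adjusted p 0.386), which lay between −0.37 and −0.13 with 1 library left out.

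GluProRS, a fused enzyme that charges both glutamate and proline, had 61.6 and 62.8 FPKM in HS cells, against 66.3 and 72.9 FPKM in NHS cells, with a log2 fold change of −0.16. Its conditions did not overlap, but the 95% interval of −0.43 to 0.11 included 0. IleRS, for isoleucine, overlapped between conditions with 53.0 and 62.3 FPKM in HS cells, against 58.0 and 66.6 FPKM in NHS cells. AspRS and TyrRS, for aspartate and tyrosine, had both HS libraries below both NHS libraries by narrow margins, with log2 fold changes of −0.09 and −0.05 that were above 0 with quantile normalization. AspRS had 123 and 127 FPKM in HS cells, against 129 and 137 FPKM in NHS cells. TyrRS had 65.8 and 62.9 FPKM in HS cells, against 66.6 and 66.3 FPKM in NHS cells.

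The remaining 6 cytosolic forms had log2 fold changes between −0.06 and 0.05, and all overlapped between conditions. AlaRS, which recognises its tRNA by a wobble pair in the acceptor stem, had 153 and 128 FPKM in HS cells, against 152 and 141 FPKM in NHS cells. AsnRS, for asparagine, had 165 and 123 FPKM in HS cells, against 162 and 136 FPKM in NHS cells. SerRS, for serine, had 125 and 106 FPKM in HS cells, against 121 and 112 FPKM in NHS cells. In all 3 the replicates differed more than the conditions did. HisRS, for histidine, had 85.6 and 70.4 FPKM in HS cells, against 81.4 and 76.7 FPKM in NHS cells. TrpRS, for tryptophan, had 65.1 and 59.4 FPKM in HS cells, against 63.1 and 61.6 FPKM in NHS cells, and its log2 fold change of −0.00 had an interval of −0.27 to 0.26. LysRS was the only cytosolic form above 0 (log2 fold change 0.05, SE 0.115), and it was below 0 with equal totals or ribosomal protein scaling.

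CysRS-m had the lowest log2 fold change of all 31 genes as deposited, at −0.47 (SE 0.146, adjusted p 0.207), but not without HS replicate 1 (−0.33) or NHS replicate 1 (−0.46), or with a pseudocount of 5 (−0.32). It had 5.80 and 7.28 FPKM in HS cells, against 9.52 and 9.29 FPKM in NHS cells, so both HS libraries were lower and the HS mean was 69.5% of the NHS mean. ArgRS-m had 8.76 and 7.47 FPKM in HS cells, against 10.8 and 10.2 FPKM in NHS cells (log2 fold change −0.34, SE 0.129, adjusted p 0.287). Both are low mRNAs, on which the added 1 FPKM narrows the fold change. ProRS-m, for proline, had 20.3 and 18.7 FPKM in HS cells, against 23.8 and 24.1 FPKM in NHS cells (log2 fold change −0.28, SE 0.099, adjusted p 0.255). LeuRS-m had 20.7 and 19.7 FPKM in HS cells, against 25.2 and 24.2 FPKM in NHS cells (log2 fold change −0.28, SE 0.096, adjusted p 0.247). SerRS-m had 16.9 and 17.5 FPKM in HS cells, against 21.3 and 20.1 FPKM in NHS cells (log2 fold change −0.25, SE 0.098, adjusted p 0.294). In these 5 mitochondrial forms the conditions did not overlap.

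The other 9 mitochondrial forms had log2 fold changes from −0.25 (GluRS-m) to 0.08 (IleRS-m), and that of GluRS-m lay between −0.41 and −0.10 with 1 library left out. ValRS-m and AspRS-m had both HS libraries below both NHS libraries, AspRS-m with 29.5 and 34.1 FPKM in HS cells, against 34.7 and 35.0 FPKM in NHS cells. The other 7 overlapped. AlaRS-m had 15.03 and 16.2 FPKM in HS cells, against 15.7 and 17.6 FPKM in NHS cells, and AsnRS-m had 5.64 and 6.44 FPKM in HS cells, against 5.31 and 7.70 FPKM in NHS cells. The interval of AsnRS-m ran from −0.62 to 0.47. MetRS-m, for the methionine of mitochondrial proteins, had 15.1 and 17.7 FPKM in HS cells, against 16.7 and 17.3 FPKM in NHS cells, and TyrRS-m had 18.7 and 19.7 FPKM in HS cells, against 17.9 and 21.4 FPKM in NHS cells. TrpRS-m was nearly level at 17.3 and 17.5 FPKM in HS cells, against 17.6 and 17.1 FPKM in NHS cells, and its interval ran from −0.25 to 0.26. IleRS-m had 6.98 and 7.42 FPKM in HS cells, between its NHS values of 5.72 and 7.89 FPKM. Both TrpRS-m and IleRS-m were just above 0 as deposited and below 0 with equal totals or ribosomal protein scaling.

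Cytosolic and mitochondrial forms were set side by side as groups. A log2 fold change under 0 was found for 16 of 17 cytosolic and 12 of 14 mitochondrial forms, and both HS libraries lay below both NHS libraries for 9 of 17 (52.9%) and 7 of 14 (50.0%), beside the 25.6% of all tested genes. The medians were −0.11 for the cytosolic and −0.13 for the mitochondrial forms. At an unadjusted p under 0.05, 5 of 17 cytosolic (29.4%) and 3 of 14 mitochondrial forms (21.4%) were lower in HS cells, beside 10.5% of all tested genes. For the cytosolic forms part of this was shared by genes of like level. Genes at the levels of the mitochondrial forms lay near all tested genes. The 2079 tested genes whose mean FPKM lay within the range of the cytosolic forms had a median of −0.06, with 31.8% having both HS libraries below and 14.8% lower at an unadjusted p under 0.05, and the 3766 within the range of the mitochondrial forms had a median of −0.02, with 25.6% and 9.88%. Single libraries decided which form had the lower median. Leaving out HS replicate 1 gave −0.19 for the cytosolic and −0.06 for the mitochondrial forms, and leaving out HS replicate 2 gave −0.11 for the cytosolic and −0.21 for the mitochondrial forms. With quantile normalization the medians were −0.02 for the cytosolic and −0.18 for the mitochondrial forms. The difference between the forms was not tested.

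**Figure D3:**
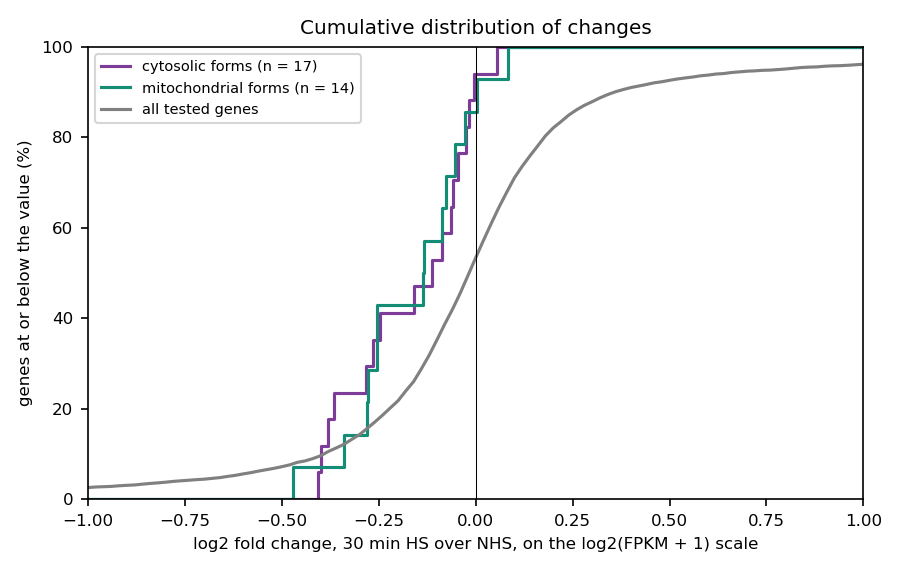
The share of genes at or below each log2 fold change, HS over NHS on the log2(FPKM + 1) scale, for 17 cytosolic forms, 14 mitochondrial forms and all tested genes, drawn from −1 to 1 (6.36% of tested genes lie outside). Both synthetase curves run left of the curve for all genes near 0, and none of the synthetases lies below −0.47 or above 0.08.

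For 11 amino acids both forms were in the table, and the cytosolic mRNA was the more abundant in every library. The mean ratio of the cytosolic to the mitochondrial level ran between 3.38 for tyrosine and 24.1 for asparagine, with a median of 5.37. The asparagine ratio was 29.3 and 19.1 in HS cells, against 30.5 and 17.6 in NHS cells, and followed the replicates rather than the conditions. The valine ratio was 10.7 and 8.21 in HS cells, against 10.5 and 11.5 in NHS cells, and the alanine ratio was 10.2 and 7.89 in HS cells, against 9.70 and 7.98 in NHS cells. At the low end, tyrosine had 3.52 and 3.19 in HS cells, against 3.72 and 3.09 in NHS cells, and tryptophan had 3.76 and 3.41 in HS cells, against 3.59 and 3.599 in NHS cells. In all of these the conditions overlapped.

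The ratio lay apart between the conditions for 3 of 11 amino acids, 2 with HS below and 1 with HS above. For levels of single genes, both HS libraries lay below in 25.6% and above in 20.5% of all tested genes. The count of 3 is therefore not read as a result about the pairs. For methionine it was 3.78 and 2.64 in HS cells, against 4.28 and 3.83 in NHS cells, where MetRS did not overlap between conditions and MetRS-m did. For isoleucine it was 7.59 and 8.40 in HS cells, against 10.1 and 8.44 in NHS cells, a margin that is small beside the spread of the NHS libraries. For serine it was higher in HS cells at 7.41 and 6.07, against 5.68 and 5.60 in NHS cells, where SerRS-m did not overlap between conditions and SerRS did. Cysteine had 7.24 and 4.61 in HS cells, against 5.15 and 4.50 in NHS cells, arginine had 3.89 and 4.67 in HS cells, against 4.04 and 4.70 in NHS cells, and aspartate had 4.16 and 3.74 in HS cells, against 3.71 and 3.92 in NHS cells. In 9 of 11 amino acids both forms had a log2 fold change under 0. Across the 11 amino acids the log2 fold changes of the forms had a Pearson's r of 0.39 and a Spearman's rho of 0.33, a description over genes that share the same 4 libraries. The differences in ratio were not tested.

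**Figure D4:**
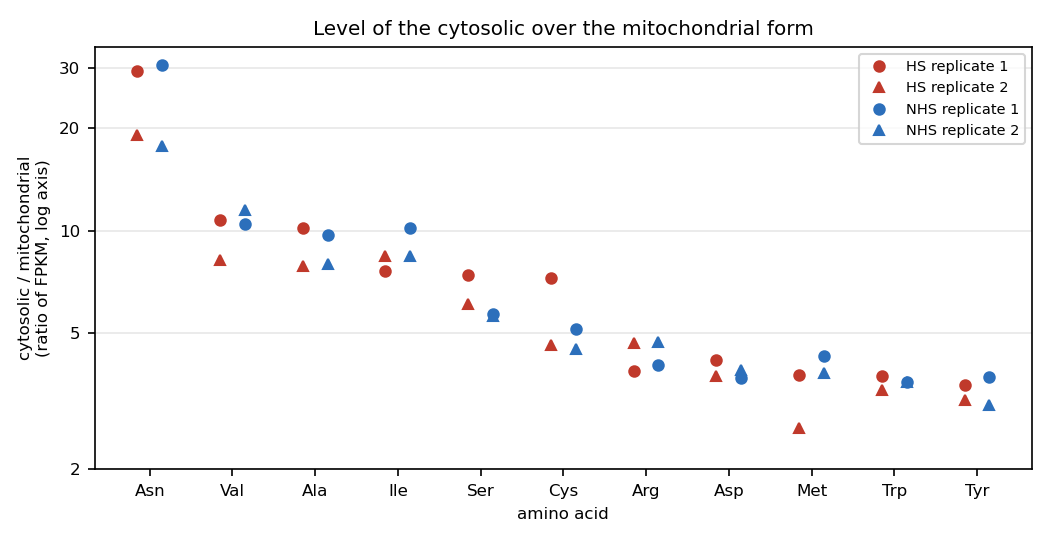
The ratio of the cytosolic to the mitochondrial FPKM for 11 amino acids on a log axis, with HS libraries in red left of NHS libraries in blue, replicate 1 as circles and replicate 2 as triangles. Methionine and isoleucine have both HS ratios below both NHS ratios, serine has both above, and the other 8 overlap.

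GluProRS was set against GluRS-m and ProRS-m, which divide its activities in mitochondria. Its level was 16.97 and 13.4 times that of GluRS-m in HS cells, against 14.8 and 12.6 times in NHS cells. It was 3.03 and 3.36 times that of ProRS-m in HS cells, against 2.79 and 3.03 times in NHS cells. Both ratios overlapped between conditions, the second only at its edge.

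By enzyme class, which was assigned from general knowledge after the values were seen, the 8 cytosolic class I genes had a median log2 fold change of −0.31 and the 8 cytosolic class II genes one of −0.06, with GluProRS holding a domain of each class. Both HS libraries lay below both NHS libraries for 5 of 8 class I (62.5%) and 3 of 8 class II genes (37.5%), beside 25.6% of all tested genes. In mitochondria the medians were close, −0.14 for 9 class I and −0.13 for 5 class II genes. Among the genes analysed, the 7 cytosolic members of the multi-synthetase complex had a median of −0.16, and 5 of 7 (71.4%) did not overlap. The 10 outside it had a median of −0.06, and 4 of 10 (40.0%) did not overlap. In all of these HS lay below NHS, beside the same 25.6% of all tested genes. LeuRS was not analysed and is in none of these class or complex groups. The cytosolic class II genes were also the more abundant, with a median of 133 FPKM in HS cells and 140 FPKM in NHS cells, against 49.0 FPKM in HS cells and 60.9 FPKM in NHS cells for class I. Class and complex membership also overlap, since MetRS, ArgRS, GlnRS and IleRS of the complex are class I and AspRS and LysRS are class II. The part of level in these differences was not tested, nor was that of class apart from complex membership.

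The partners of the synthetases were read from a list of 9 genes, of which 0 were called (3.31% of all tested genes), 1 was lower at an unadjusted p under 0.05 (10.5% of all tested genes) and 3 had both HS libraries below both NHS libraries (25.6% of all tested genes). Their median log2 fold change was −0.08, with 7 of 9 under 0, beside 53.4% of all tested genes. That 1 gene was Slimp, a catalytically inactive relative of SerRS-m that binds it in *Drosophila*, with 11.9 and 13.5 FPKM in HS cells, against 15.4 and 18.9 FPKM in NHS cells (log2 fold change −0.40, SE 0.147, adjusted p 0.273). Slimp and SerRS-m were thus both lower in HS cells than in NHS cells without overlap, and neither passed the test. The subunits of the cytosolic phenylalanine enzyme, whose symbols differ in form from the rest, had 45.0 and 41.7 FPKM (alpha-PheRS) and 54.6 and 51.3 FPKM (beta-PheRS) in HS cells, against 53.9 and 47.4 FPKM (alpha-PheRS) and 55.0 and 57.2 FPKM (beta-PheRS) in NHS cells. AIMP1 had 63.2 and 52.1 FPKM in HS cells, against 51.4 and 53.8 FPKM in NHS cells, and AIMP2 and AIMP3 also overlapped between conditions. GatA, GatB and GatC, which convert glutamate to glutamine on mitochondrial tRNA, overlapped as well.

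Genes that act next to the synthetases were taken from 4 further lists. Of the factors that carry charged tRNAs through elongation in the cytosol, 5 of 7 were matched, with a median log2 fold change of 0.08. The symbols eEF1alpha1 and eEF5 were not matched, so these factors are not described here. Of these 5, 0 were called, beside 3.31% of all tested genes. At an unadjusted p under 0.05, 0 were lower and 0 higher, beside 10.5% and 7.42% of all tested genes. eEF1beta, a nucleotide exchange factor, had 1581 and 1601 FPKM in HS cells, against 1492 and 1490 FPKM in NHS cells. eEF1alpha2, an isoform of the factor that delivers charged tRNAs, had the log2 fold change farthest from 0 in this list (0.22, SE 0.286), at a mean of 1.19 FPKM in HS cells and 0.845 FPKM in NHS cells. Of 8 mitochondrial initiation, elongation and release factors 0 were called, beside 3.31% of all tested genes. At an unadjusted p under 0.05, 1 was lower, beside 10.5% of all tested genes. This was mIF3, an initiation factor, with 10.4 and 10.2 FPKM in HS cells, against 12.4 and 13.2 FPKM in NHS cells (log2 fold change −0.29, SE 0.104, adjusted p 0.257). The median of the mitochondrial factors was 0.01, with 4 of 8 under 0, beside 53.4% of all tested genes.

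Of 5 genes for tRNA maturation and modification, 0 were called, beside 3.31% of all tested genes. At an unadjusted p under 0.05, 0 were lower and 0 higher, beside 10.5% and 7.42% of all tested genes. All 5 had a log2 fold change under 0, beside 53.4% of all tested genes. Their median was −0.10, close to that of the synthetases. *La*, whose product binds the ends of newly made tRNAs, was the most abundant of them with 290.2 and 229 FPKM in HS cells, against 295 and 268 FPKM in NHS cells, and overlapped.

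Uncharged tRNA is sensed by the kinase Gcn2, which phosphorylates eIF2alpha and so raises translation of the transcription factor encoded by *crc*, the fly ATF4. Of 14 genes of this response and of amino acid synthesis, 13 were tested and 1 was called, beside 3.31% of all tested genes. The called gene was Gcn2 itself, with 13.3 and 16.7 FPKM in the HS libraries but listed at 0 in each NHS library. The overlapping gene PNPase had 13.0 and 11.4 FPKM in HS cells and the neighbour Gprk2 had 54.8 and 69.9 FPKM there, while the NHS libraries list both of them at 0 too, so no fold is given for Gcn2. An exact 0 in such a table can also be a failed estimate for a locus, and which it was here was not tested, so the call is not read as a difference between conditions. At an unadjusted p under 0.05, 2 other genes of the list were lower in HS cells, Thor and PPP1R15, beside 10.5% of all tested genes. *crc* had 637 and 733 FPKM in HS cells, against 663 and 758 FPKM in NHS cells, and overlapped. Thor, the 4E-BP translation repressor and an ATF4 target, had 50.4 and 82.6 FPKM in HS cells, against 211 and 268 FPKM in NHS cells (log2 fold change −1.86, SE 0.277). It missed the threshold with an adjusted p of 0.052. PPP1R15, which directs the removal of the phosphate from eIF2alpha, had 155.5 and 163 FPKM in HS cells, against 189 and 205 FPKM in NHS cells (log2 fold change −0.30, SE 0.096, adjusted p 0.214).

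Few synthetase genes share exons with neighbours on the same strand. In the annotation 255 nt of HisRS exons also belong to Bx and 154 nt of AspRS exons also belong to an antisense RNA gene, and reads from these stretches could be assigned to either gene. A further 16 overlaps were with genes on the opposite strand, the longest being 1448 nt at AspRS and 905 nt at GluProRS, and the libraries kept the strand. The gene of ThrRS, the most abundant mRNA, lies on chromosome arm 2L with 4 exons in its longest transcript of 2796 nt, and that of GluRS-m, among the least abundant, lies on 3L with 4 exons in a transcript of 1700 nt. ArgRS, with the smallest adjusted p, lies on the X chromosome and has 5 exons in a transcript of 2135 nt, and CysRS-m, with the lowest log2 fold change as deposited, lies on 2R and has 2 exons in its longest transcript of 2108 nt.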

How the data were processed

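RNA-seq of poly(A)+ RNA from S2 cells was used for 30 min HS and NHS, with 2 biological replicates each by the series design, and the PRO-seq samples were not analysed here. The authors clipped adapters with fastx_clipper, aligned the reads to dm3 with TopHat2 (strand kept) and deposited FPKM per gene from Cuffnorm, without versions. Read counts were not used here, so depth is known only as a ratio, at or near which 28.7% to 30.1% of the genes compared lay. The precision of the FPKM values is seen only in the spread between replicates. FlyBase identifiers were matched to symbols of the Ensembl BDGP6 annotation for 14925 of 15602 genes. As the builds differ, no coordinates are given, and 0 columns of values were left unmapped.

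The 7815 genes that averaged 1 FPKM or more were tested on log2(FPKM + 1) with limma 3.58.1 in R 4.3.3 (lmFit, eBayes with trend, no term but condition) and Benjamini-Hochberg adjustment over all of them, and the code was tested on simulated data. The alternatives were pseudocounts of 0.1 and 5, no minimum and a minimum of 5 FPKM, 3 scalings, the variance settings, a replicate block, an adjusted p under 0.001, TPM and each library left out in turn.

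The named genes were to be those called, the 3 highest and 3 lowest log2 fold changes, the 2 highest and 2 lowest levels in each form, the 3 highest and 3 lowest ratios, and from each list the called genes or else the one with the log2 fold change farthest from 0. The other members and list genes were added after their values were seen. The members and lists were chosen with earlier results of these data known, and enzyme class and complex membership were assigned after the values were seen. Of the 6 listed tRNA maturation genes, 5 are described, and the other is not reported here.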

Additional observations from a re-analysis of the deposited data

How the results depend on the processing

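The count of called genes over all those tested was 259, and it was 396 with no minimum, 149 with a minimum of 5 FPKM, 595 with ribosomal protein scaling, 916 with the replicate block, 10 at an adjusted p under 0.001, and 26 to 64 with 1 library left out, where fewer samples enter. The replicate number is not said to mark a batch, only 2 numbers are shared, and the difference between replicates 1 and 2 in HS cells correlated with that in NHS cells at 0.67 over the 31 synthetases and 0.22 over all tested genes. With the replicate block 3 synthetases were called (ArgRS, log2 fold change −0.40, adjusted p 0.041, MetRS, −0.41, adjusted p 0.048, and GlnRS, −0.37, adjusted p 0.049), and with ribosomal protein scaling 1 was called (ArgRS, −0.635, adjusted p 0.040), against 0 as deposited and under every other alternative run. At an unadjusted p under 0.05 the count of lower synthetases was 12 with equal totals, 18 with ribosomal protein scaling, 3 with quantile normalization, 12 with the replicate block and 7 to 9 with the other settings on 4 libraries.

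With equal totals, ribosomal protein scaling and quantile normalization the median log2 fold change was −0.258, −0.349 and −0.063 over the 31 genes, −0.258, −0.349 and −0.019 over the cytosolic forms, and −0.267, −0.350 and −0.181 over the mitochondrial forms, whose median lay between −0.208 and −0.058 with 1 library left out. Signs turned for members near 0. With equal totals and ribosomal protein scaling LysRS had −0.094 and −0.186, IleRS-m −0.046 and −0.127, and TrpRS-m −0.137 and −0.225. With quantile normalization AspRS had 0.0054, TrpRS 0.082, TyrRS 0.043, HisRS 0.082, AlaRS 0.024, SerRS 0.102, TyrRS-m 0.0098 and AsnRS 0.045. With 1 library left out TrpRS lay between −0.069 and 0.061, MetRS-m between −0.159 and 0.054, LysRS between −0.043 and 0.151, IleRS between −0.227 and 0.0038, HisRS between −0.164 and 0.115, AlaRS between −0.193 and 0.066, SerRS between −0.136 and 0.099, AsnRS-m between −0.309 and 0.156, TyrRS-m between −0.152 and 0.095, IleRS-m between −0.118 and 0.286, TrpRS-m between −0.015 and 0.022, and AsnRS between −0.269 and 0.152. Without a change of sign, values moved by over 1.5 times with 1 library left out for AlaRS-m (−0.165 to −0.0089), AspRS (−0.132 to −0.040), AspRS-m (−0.234 to −0.031), GluProRS (−0.228 to −0.091), TyrRS (−0.078 to −0.014), ValRS-m (−0.192 to −0.080), MetRS (−0.547 to −0.264), CysRS (−0.423 to −0.105), ThrRS (−0.367 to −0.128) and GluRS-m (−0.411 to −0.096). Apart from the 14 members whose sign turned, 17 members kept their sign under every alternative. Of 432 member values under alternatives, 394 kept direction and side of the threshold. Without a minimum, with a minimum of 5 FPKM, and with the variance settings or replicate block, the log2 fold change was the same by construction. Under these settings only the side of the threshold could move, so they say nothing about the signs. With a minimum of 5 FPKM, 29 members were tested. Under TPM 0 members had another rank among all genes within a library, which is fixed in advance since TPM rescales a library's FPKM alike. Read counts were not used here, so how depth limits the low mitochondrial forms was not tested.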

Other observations

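Replicates of the synthetases differed in the same sense in both conditions more often for the cytosolic than for the mitochondrial forms, a pattern seen after the values were examined and not tested. Replicate 1 was above replicate 2 in both HS and NHS cells for 11 of 17 cytosolic forms (64.7%) and 2 of 14 mitochondrial forms (14.3%), beside 36.2% of all tested genes. Replicate 2 was above replicate 1 in both conditions for 4 cytosolic forms (23.5%) and 7 mitochondrial forms (50.0%), beside 36.6% of all tested genes. The sense was mixed for 2 of 17 cytosolic and 5 of 14 mitochondrial forms, and for 2128 of the 7815 tested genes. Most tested genes thus also differed in the same sense in both conditions. The 7 tested haemocyte genes did so too, 5 higher in replicate 2 and 2 higher in replicate 1. The widest gaps were those of Hml and He. Hml, which encodes a clotting protein, had 4.45 and 20.7 FPKM in HS cells, against 5.69 and 22.5 FPKM in NHS cells, and He had 5.36 and 1.21 FPKM in HS cells, against 5.97 and 1.09 FPKM in NHS cells. The labels do not say that the number marks a batch or a culture, and its part in the synthetase values was not tested.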
